A study of Mus musculus with 16 samples.

Results

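Nicotinamide adenine dinucleotide (NAD) carries electrons between the reactions of energy metabolism and is also used up by enzymes that cleave it. Cells rebuild it mainly by salvage: nicotinamide is turned into nicotinamide mononucleotide (NMN) by NAMPT, nicotinamide riboside is turned into NMN by the nicotinamide riboside kinases, and the NMNAT enzymes join NMN to an adenylyl group to give NAD. In heart muscle most NAD lies in mitochondria, where it feeds the respiratory chain and serves the mitochondrial sirtuins. Nmrk2, formerly Itgb1bp3, encodes the muscle form of nicotinamide riboside kinase and was first described as a muscle protein that binds an integrin.

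The transcripts described here are 10 genes of NAD synthesis and use, out of 27670 gene names on the array. They were found by gene name or synonym among the array's probes without controls: Nmrk2 (named Itgb1bp3 in the files), Nampt, Nmnat1, Nmnat3, Nnmt, Nadk, Nnt, Sirt1, Sirt3 and Sirt5. Nmrk2 was selected on its rise after banding in earlier results of these same arrays, so its values are given as a description with no test. The other 9 were set beside it for their place in NAD metabolism, with earlier results known. The 10 genes had 16 probes among 41174, and 15 of these probes passed the filter on dim spots.

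Hearts of 129Sv mice were profiled on 16 two-colour arrays, 4 biological replicates in each of 4 groups, 1 week after surgery. CHIP-/- mice, in which Stub1, the gene for a chaperone-associated ubiquitin ligase, is disrupted, had undergone trans-aortic banding (TAB) or a sham operation, and wild-type mice had undergone TAB or a sham operation. TAB narrows the aorta, so that the left ventricle has to eject blood against a raised pressure. Each value is the log2 ratio of ventricle RNA (Cy5) over the same reference RNA (Cy3), made from whole neonatal mice of mixed 129Sv and C57BL/6 background. Levels of different genes were not set against each other, because each probe has its own brightness. The sources used here give no age, no sex and no construction of the CHIP-/- allele.

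In the heart channel, 27.0% to 37.7% of spots on an array exceeded their background well. Stub1 itself had log2 ratios of -1.47, -1.17, -1.36 and -1.29 in CHIP-/- TAB hearts and -1.37, -1.31, -1.39 and -1.24 in CHIP-/- sham hearts, against 0.25, 0.06, -0.41 and 0.14 in wild-type TAB hearts and 0.30, 0.37, 0.39 and 0.43 in wild-type sham hearts. The 8 CHIP-/- arrays lay below the 8 wild-type arrays, as their labels state. Every group lay on a slide of its own (4 slides), and a slide effect and a group effect cannot be told apart. On 3 sham arrays (CHIP-/- replicate 1, wild type replicates 1 and 3) the atrial transcript Myl7 stood above a log2 ratio of 1, and on 3 other sham arrays (CHIP-/- replicates 2 and 4, wild type replicate 4) a Y-linked transcript was detected. Neither was seen on a TAB array. In bulk tissue, fewer cells of a type and less RNA per cell cannot be told apart.

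The promoter sequences of Nmrk2 and Nampt are shown because these genes encode the 2 enzymes that make NMN from different precursors, and their transcripts moved in opposite directions. RefSeq windows (build GRCm38.p6) were at hand for 8 of the 10 genes, all but Nnmt and Nnt. The 250 bases before the annotated start are printed 5′ to 3′ on the gene's strand, with the letters TATAAA (the TATA box) and GGGCGG (the GC box), on either strand, in capitals. The window of Nmrk2 is chr10:81202038-81202287 on the minus strand, and that of Nampt is chr12:32820085-32820334 on the plus strand. The annotated Nmrk2 gene spans chr10:81198170-81202265, so most of its window lies inside the longest annotated extent.
Nmrk2: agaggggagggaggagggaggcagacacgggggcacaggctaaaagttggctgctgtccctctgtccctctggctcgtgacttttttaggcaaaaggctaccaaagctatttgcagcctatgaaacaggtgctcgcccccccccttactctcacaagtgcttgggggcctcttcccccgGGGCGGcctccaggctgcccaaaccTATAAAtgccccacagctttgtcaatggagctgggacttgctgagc
Nampt: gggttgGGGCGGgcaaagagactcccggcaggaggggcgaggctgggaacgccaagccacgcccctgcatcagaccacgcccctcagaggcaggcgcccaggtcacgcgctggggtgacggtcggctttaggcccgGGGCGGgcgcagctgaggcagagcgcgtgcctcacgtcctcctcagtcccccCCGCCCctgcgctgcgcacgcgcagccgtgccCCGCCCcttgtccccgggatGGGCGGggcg
The Nmrk2 window held TATAAA from 46 to 41 bases before the start, and TATAAA was found in none of the other 10 windows of these genes. Of 32851 such windows in the RefSeq table, 12.4% held TATAAA on either strand. The Nampt window held GGGCGG 5 times and the Nmrk2 window once, and 32.7% of all windows held it. The bases G and C made up 75.6% of the Nampt window and 58.8% of the Nmrk2 window, against a median of 52.4% over all windows. The letters CACGTG (an E-box, in 6.02% of all windows) stood 2 times in the Sirt1 window and once in 1 of the 2 Nadk windows, and CATTCC (the M-CAT element, in 12.6%) stood once in the Sirt5 window. The motifs were chosen with the sequences in view, the searched motifs do not overlap each other in the printed windows, and a match is a description of these letters only.

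Nmrk2 had the largest rise with TAB of all 11058 genes and other features measured in wild-type hearts, and the next to largest, after Postn, in CHIP-/- hearts. Its log2 ratios were 5.22, 5.20, 5.48 and 5.37 in CHIP-/- TAB hearts, against 0.91, 1.04, 0.54 and 1.35 in CHIP-/- sham hearts. In wild type they were 3.51, 5.17, 4.59 and 4.89 after TAB, against 1.89, 1.28, 1.23 and 2.40 after sham. Every TAB array lay above every sham array in both genotypes, and the 4 CHIP-/- TAB arrays lay close together while wild-type TAB replicate 1 stood below its group. The difference between TAB and sham was 4.36 (SE 0.26), or 20.5-fold, in CHIP-/- hearts and 2.84 (SE 0.26), or 7.16-fold, in wild-type hearts. Over 12 alternatives of processing it ran from 3.86 to 4.63 in CHIP-/- hearts and from 2.45 to 3.07 in wild-type hearts. These alternatives include fits without the arrays of high Myl7 and fits without those with a Y-linked transcript.

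Nmrk2 differed between the genotypes in opposite directions after TAB and after sham. After TAB its mean was 5.32 ± 0.13 in CHIP-/- hearts and 4.54 ± 0.73 in wild-type hearts (SD, n = 4 each), a difference of 0.78 (SE 0.26), and the CHIP-/- arrays all lay above the wild-type arrays. After sham its mean was 0.96 ± 0.34 in CHIP-/- hearts and 1.70 ± 0.55 in wild-type hearts (SD, n = 4 each), a difference of -0.74 (SE 0.26), with overlapping arrays. The TAB response in CHIP-/- hearts was larger than that in wild-type hearts by 1.52 (SE 0.37). Wild-type TAB replicate 1, which had the lowest share of spots above background of the 16 arrays (27.0%), bears on the comparison after TAB: without it that difference was 0.43, and the difference between the TAB responses was 1.18.

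The signal behind these ratios was measured on every array. In the heart channel the single Nmrk2 probe exceeded its background well on all 16 arrays. Its background-subtracted heart intensity averaged 2339 in CHIP-/- TAB hearts and 100.4 in CHIP-/- sham hearts. In wild type it averaged 1455 after TAB and 198.8 after sham. The intensity of the reference RNA for the same probe averaged 68.1, 55.2, 64.9 and 58.4 in these 4 groups in the same order, so the change lay in the heart channel.

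**Figure D1:**
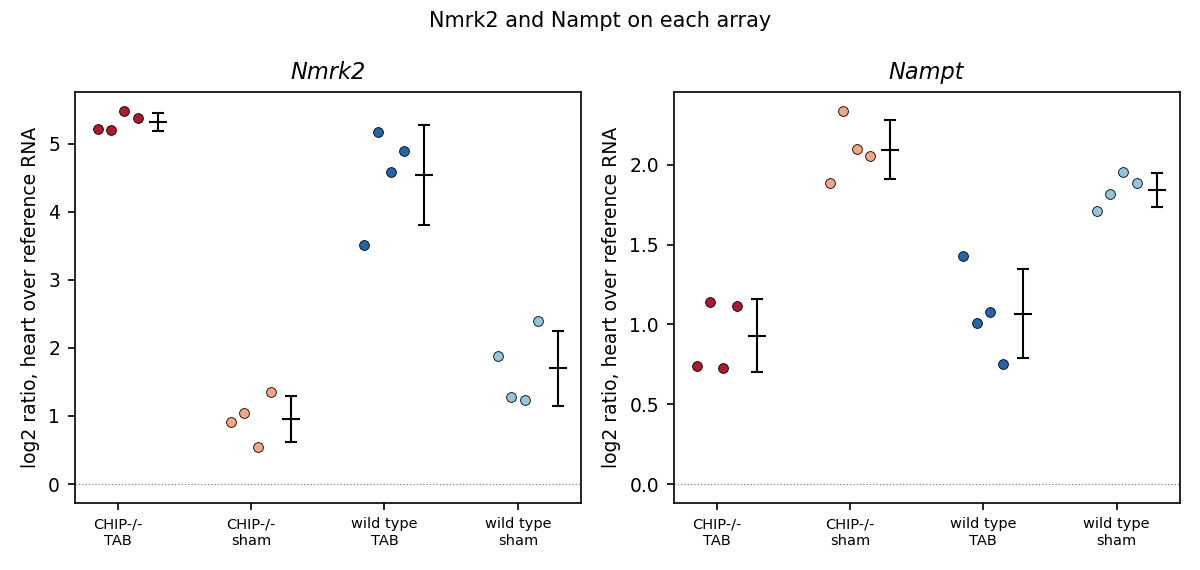
Log2 ratio of heart over reference RNA for Nmrk2 and Nampt on each of the 16 arrays, with the mean and SD of each group beside its 4 points. The Nmrk2 points of the TAB groups lie above those of the sham groups, at 3.51 to 5.48 against 0.54 to 2.40, and the Nampt points of the TAB groups lie below those of the sham groups.

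Nampt, the rate-limiting enzyme of nicotinamide salvage, fell after TAB in both genotypes. Its log2 ratios were 0.74, 1.14, 0.72 and 1.12 in CHIP-/- TAB hearts, against 1.89, 2.34, 2.10 and 2.05 in CHIP-/- sham hearts. In wild type they were 1.43, 1.01, 1.08 and 0.75 after TAB, against 1.71, 1.82, 1.96 and 1.88 after sham. The TAB and sham arrays did not overlap in either genotype. The difference was -1.16 (SE 0.12, limma adjusted p = 4.8e-08), or 2.24-fold lower, in CHIP-/- hearts and -0.78 (SE 0.12, adjusted p = 2.8e-05), or 1.71-fold lower, in wild-type hearts. In order of size these were the falls ranked 72 in CHIP-/- hearts and 82 in wild-type hearts among 11058 features. The CHIP-/- and wild-type responses differed by -0.39 (95% interval -0.74 to -0.04, adjusted p = 0.21), which did not pass the threshold of 0.05. A second, dimmer Nampt probe gave -0.72 (SE 0.14) in CHIP-/- hearts and -0.80 (SE 0.14) in wild-type hearts, so both probes fell with TAB but they differed on which genotype had the larger fall.

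Of the 9 genes set beside Nmrk2, TAB raised 1 and lowered 7 in CHIP-/- hearts, while 24.0% of all features rose and 23.2% fell. In wild-type hearts TAB raised 1 and lowered 6, while 18.7% of all features rose and 17.0% fell. The median difference of the 9 genes was -0.49 in CHIP-/- hearts and -0.33 in wild-type hearts, beside medians of -0.01 and 0.00 over all features. Without the 3 arrays of high Myl7, or without the 3 arrays with a Y-linked transcript, TAB lowered 6 of the 9 in CHIP-/- hearts, Nadk being the one that no longer passed, and the counts in wild type stayed 1 and 6. The split of all calls depends on the scaling: with each array centred on its median in place of loess, 12.2% of calls in CHIP-/- hearts were rises, against 50.9% with loess, and 8.74% of calls in wild-type hearts were rises, against 52.3% with loess. Under that centring the median of all features stood at -0.22 in CHIP-/- hearts and -0.19 in wild-type hearts. Falls were then more common among all features. In CHIP-/- hearts 5691 features passed, 694 of them rises, against 5223 with 2656 rises with loess. In wild-type hearts 4407 passed, 385 of them rises, against 3949 with 2066 rises with loess. Beside these counts, the 9 genes included 1 rise and 7 falls in CHIP-/- hearts and no rise and 7 falls in wild-type hearts.

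The NMNAT enzymes that complete NAD synthesis also fell. Nmnat3, the mitochondrial form, had log2 ratios of -0.35, -0.01, -0.08 and -0.37 in CHIP-/- TAB hearts, against 0.52, 0.64, 0.61 and 0.85 in CHIP-/- sham hearts. Wild-type hearts had 0.45, 0.04, 0.18 and 0.14 after TAB, against 0.77, 0.60, 0.66 and 0.61 after sham. No TAB array reached the sham arrays of its genotype, and the CHIP-/- TAB arrays lay below the wild-type TAB arrays. Nmnat3 fell by 0.86 (SE 0.10, adjusted p = 2.2e-07) in CHIP-/- hearts and by 0.46 (SE 0.10, adjusted p = 0.00091) in wild-type hearts, and after TAB it was lower in CHIP-/- hearts by a difference of -0.41 (SE 0.10, adjusted p = 0.0084). The difference between its TAB responses was -0.40 (SE 0.14, adjusted p = 0.10) and did not pass the threshold. It also failed to pass under 9 of 11 alternatives of processing and with 15 of 16 left-out arrays. It passed with Feature Extraction's log ratios (-0.77, adjusted p = 0.045) and with the deposited series table (-0.77, adjusted p = 0.042), whose ratios are nearly the same. Without CHIP-/- TAB replicate 2 it passed as well (-0.46, adjusted p = 0.045).

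Nmnat1, the nuclear form, had log2 ratios of 0.70, 0.83, 0.68 and 0.85 in CHIP-/- TAB hearts, against 1.42, 1.51, 1.29 and 1.26 in CHIP-/- sham hearts. Wild-type hearts had 1.10, 0.99, 1.03 and 0.87 after TAB, against 1.32, 1.31, 1.44 and 1.26 after sham. The groups were again apart in each genotype. The difference was -0.61 (SE 0.07, adjusted p = 3.2e-07) in CHIP-/- hearts and -0.33 (SE 0.07, adjusted p = 0.00086) in wild-type hearts. Its second probe fell likewise in CHIP-/- hearts, by 0.46 (SE 0.08), but gave -0.05 (SE 0.08) in wild-type hearts, where its arrays overlapped. The Nmnat1 transcript was therefore lower after TAB by both probes in CHIP-/- hearts and by 1 of 2 probes in wild type.

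Nnmt, which methylates nicotinamide and so removes it from salvage, was the 1 gene of the 9 that rose. Its log2 ratios were -0.28, -0.53, -0.37 and -0.63 in CHIP-/- TAB hearts, against -1.09, -1.44, -1.18 and -1.30 in CHIP-/- sham hearts. In wild type they were -0.81, -0.71, -0.82 and -0.65 after TAB, against -1.32, -1.09, -1.35 and -1.18 after sham. No sham array reached a TAB array of its genotype. The rise was 0.80 (SE 0.09, adjusted p = 1.3e-07), or 1.75-fold, in CHIP-/- hearts and 0.49 (SE 0.09, adjusted p = 0.00018), or 1.40-fold, in wild-type hearts. Over 12 alternatives of processing the rise ran from 0.49 to 1.39 in CHIP-/- hearts and from 0.24 to 0.86 in wild-type hearts. With median centring the wild-type difference was 0.24 (adjusted p = 0.089) and no longer passed.

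Markers of other cell types moved with the same contrast. The 7 fibroblast markers averaged a log2 ratio of -0.09 in CHIP-/- TAB hearts (array means from -0.27 to 0.03) and -1.52 in CHIP-/- sham hearts (-1.70 to -1.33). In wild type they averaged -0.57 after TAB (-0.88 to -0.36) and -1.30 after sham (-1.38 to -1.11). Of these 7, 6 rose in CHIP-/- hearts (all but Pdgfra) and 5 rose in wild-type hearts (all but Pdgfra and Tcf21). The 6 measured macrophage and monocyte markers averaged 0.58 (0.47 to 0.70) after TAB and -0.22 (-0.29 to -0.10) after sham in CHIP-/- hearts, and 0.25 (0.16 to 0.32) after TAB and -0.12 (-0.15 to -0.05) after sham in wild-type hearts. The 6 measured ventricular muscle markers averaged 3.34 (3.25 to 3.47) after TAB and 3.67 (3.59 to 3.71) after sham in CHIP-/- hearts, and 3.58 (3.52 to 3.74) after TAB and 3.70 (3.65 to 3.76) after sham in wild-type hearts. In CHIP-/- hearts the ventricular marker Tnnt2 rose by 0.32, while Myh6, Tnni3, Myl3, Actc1 and Ckm fell. The 5 measured skeletal muscle markers, a tissue in which Nmrk2 is also used, averaged -2.31 after TAB and -2.24 after sham in CHIP-/- hearts, and -2.26 after TAB and -2.21 after sham in wild-type hearts. These means hide opposite moves. Myh4 fell by 0.95 in CHIP-/- hearts and by 0.31 in wild-type hearts, and Tnnc2 rose by 0.49 and by 0.24. Mylpf fell by 0.19 in CHIP-/- hearts, and Tnnt3 and Actn3 passed in neither genotype. The 5 endothelial markers averaged 0.71 (0.62 to 0.83) after TAB and 0.49 (0.44 to 0.58) after sham in CHIP-/- hearts, and 1.00 (0.73 to 1.14) after TAB and 0.54 (0.47 to 0.61) after sham in wild-type hearts. The 4 measured adipocyte markers averaged -2.63 (-2.78 to -2.35) after TAB and -3.11 (-3.21 to -2.94) after sham in CHIP-/- hearts, and -2.64 (-2.76 to -2.54) after TAB and -2.94 (-3.08 to -2.77) after sham in wild-type hearts. The 2 measured neutrophil markers averaged -1.84 (-1.98 to -1.65) after TAB and -2.24 (-2.30 to -2.10) after sham in CHIP-/- hearts, and -2.21 (-2.34 to -2.07) after TAB and -2.51 (-2.71 to -2.36) after sham in wild-type hearts. The array means of the endothelial, adipocyte and neutrophil lists were thus higher after TAB in both genotypes, without overlap. Single markers of these lists and of the macrophage list did not all pass the threshold. In CHIP-/- hearts the endothelial Kdr (-0.06) and Tie1 (0.04) and the neutrophil Ngp (0.11) did not pass. In wild-type hearts Tie1 (0.18), Ngp (0.12), the adipocyte Adipoq (0.04) and Plin1 (0.14), and the macrophage Cd68 (0.02) and Csf1r (-0.09) did not pass. The neutrophil marker Retnlg, the macrophage marker Itgam and the adipocyte marker Lep were not well above background on any array. The part of these cell types in the changes of Nmrk2, Nnmt and the other NAD genes was not tested.

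**Figure D2:**
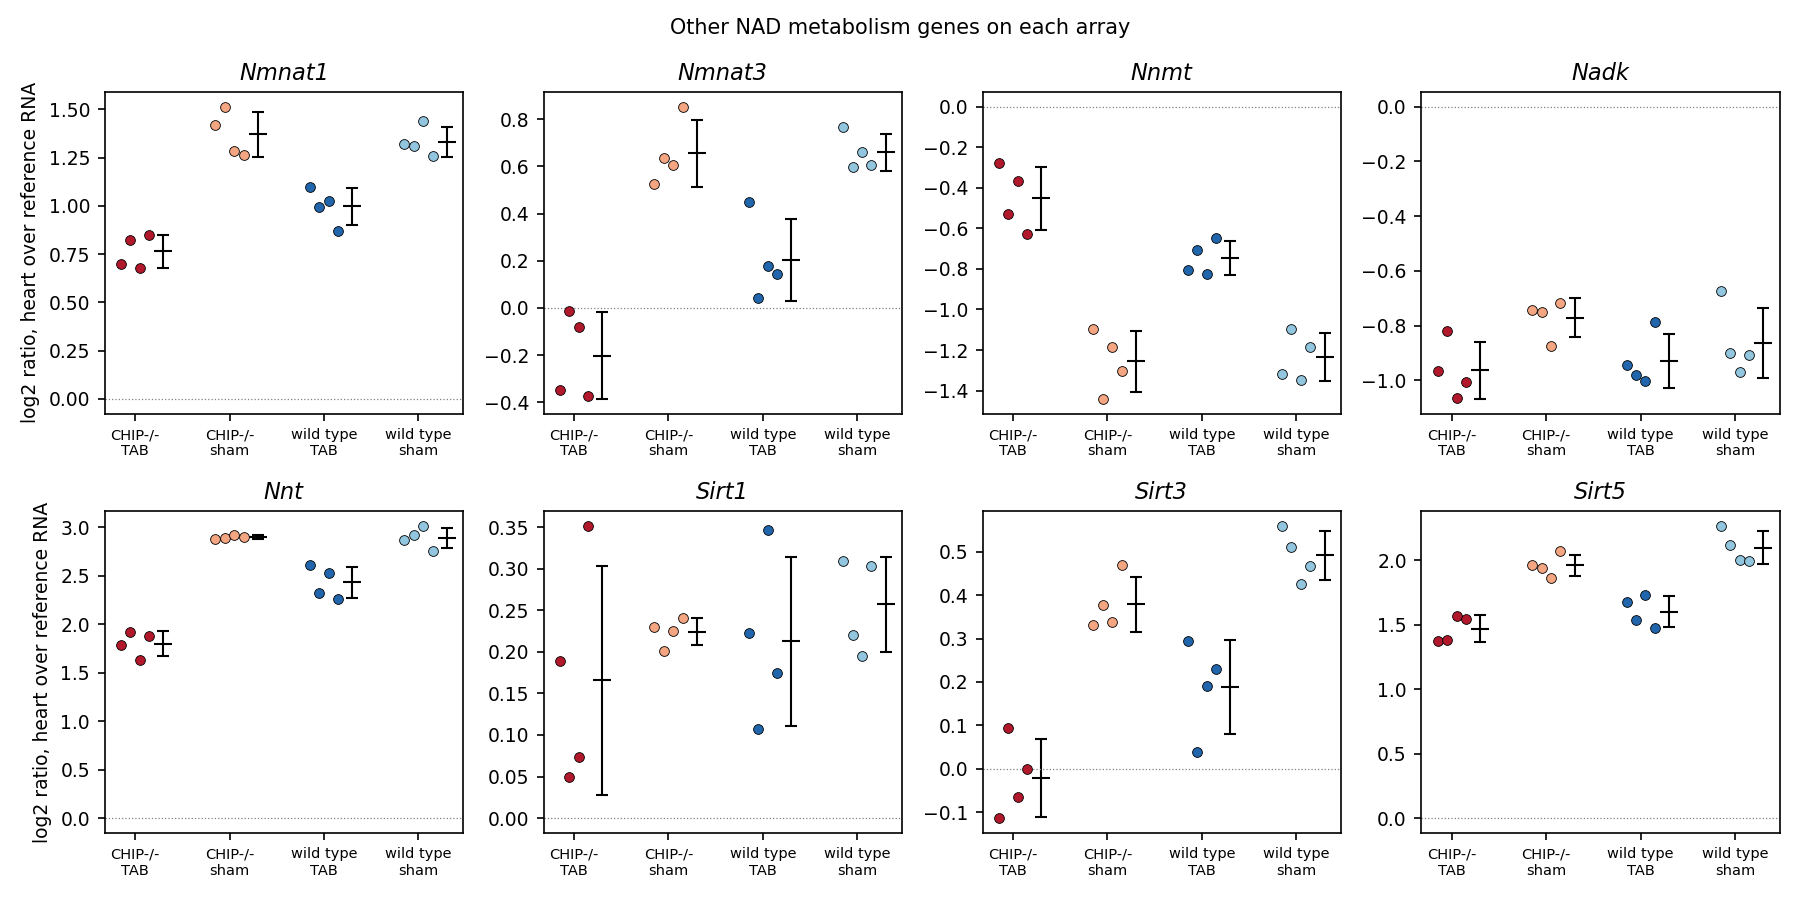
Log2 ratio of heart over reference RNA for the other 8 NAD metabolism genes on each of the 16 arrays, with the mean and SD of each group beside its 4 points and a separate vertical scale per gene. The Nnt points of CHIP-/- TAB hearts, at 1.63 to 1.92, lie below those of the other 3 groups, and the Sirt1 points of the 4 groups overlap.

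Nnt encodes the transhydrogenase of the inner mitochondrial membrane, which uses NADH and the proton gradient to make NADPH. A deletion in Nnt is known in some C57BL/6 mice, while the hearts here are labelled 129Sv. Its log2 ratios were 1.78, 1.92, 1.63 and 1.88 in CHIP-/- TAB hearts, against 2.87, 2.89, 2.92 and 2.90 in CHIP-/- sham hearts. In wild type they were 2.61, 2.32, 2.53 and 2.26 after TAB, against 2.87, 2.92, 3.02 and 2.76 after sham. The CHIP-/- TAB arrays were the lowest of the 16, and the sham arrays of both genotypes overlapped (difference 0.01, 95% interval -0.15 to 0.16).

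Nnt was the 1 gene of the 9 whose TAB response passed the test of a difference between genotypes. It fell by 1.10 (SE 0.08, adjusted p = 1.7e-10) in CHIP-/- hearts and by 0.46 (SE 0.08, adjusted p = 5.5e-05) in wild-type hearts. The CHIP-/- response minus the wild-type response was -0.64 (SE 0.11, adjusted p = 0.0015), and in this test 2.83% of all features passed with a positive and 2.60% with a negative difference. The difference passed under all 11 alternatives of processing and each time an array was left out, with values from -0.72 to -0.59 over the 11 alternatives. After TAB alone, Nnt was 1.55-fold lower in CHIP-/- hearts (difference -0.63, SE 0.08, adjusted p = 1.3e-05).

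The other Nnt probes varied in the size of this gap. The probe that lacked a value on CHIP-/- sham replicates 1 and 3 gave a fall of 1.21 (SE 0.10) in CHIP-/- hearts and of 0.92 (SE 0.08) in wild-type hearts, and the responses differed by -0.28 (SE 0.13). The next probe gave a fall of 1.37 (SE 0.09) in CHIP-/- hearts and of 0.74 (SE 0.09) in wild-type hearts, and the responses differed by -0.63 (SE 0.13). All 3 probes thus fell in both genotypes and fell more in CHIP-/- hearts. The last Nnt probe did not stand well above background on any array.

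After TAB, CHIP-/- hearts were higher than wild-type hearts in 1 of the 9 genes and lower in 4, while 5.25% of all features were higher and 6.29% lower. The lower genes were Nnt, Nmnat3, Nmnat1 (difference -0.23, SE 0.07, adjusted p = 0.036) and Sirt3 (difference -0.21, SE 0.06, adjusted p = 0.031), and the higher gene was Nnmt (difference 0.30, SE 0.09, adjusted p = 0.033). Nnt kept its call under each alternative and each left-out array, and Nmnat3 kept it under all but median centring (difference -0.33, adjusted p = 0.093). The calls of Nmnat1, Nnmt and Sirt3 were lost under 8, 7 and 7 of 12 alternatives, with the direction kept in each. The other Nmnat1 probe gave a difference of -0.34 (SE 0.08) after TAB, with no overlap of arrays. Without wild-type TAB replicate 1 the genes past the threshold were 2 lower and 0 higher, and the same counts held without CHIP-/- TAB replicate 1, without CHIP-/- TAB replicate 3 and without wild-type TAB replicate 3. With median centring 55.8% of all calls in this comparison were higher in CHIP-/- hearts, against 45.5% with loess.

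After sham, none of the 9 genes passed between CHIP-/- and wild-type hearts, while 0.0181% of all features were higher and 0.0181% lower in this limma fit. The unadjusted p was under 0.05 for Nampt alone (difference 0.25, 95% interval 0.00 to 0.50, unadjusted p = 0.048, adjusted p = 0.62). The 9 differences ran from -0.14 in Sirt5 to 0.25 in Nampt. The differences between genotypes in Nnt, Nmnat3, Nmnat1, Sirt3 and Nnmt were called after TAB and not after sham. The test of a difference between the TAB responses passed for Nnt. For Nmnat3 it passed only in the settings named above.

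The sirtuins use NAD to remove acyl groups from proteins. Sirt3, the main mitochondrial deacetylase, had log2 ratios of -0.11, 0.09, -0.06 and 0.00 in CHIP-/- TAB hearts, against 0.33, 0.38, 0.34 and 0.47 in CHIP-/- sham hearts. Wild-type hearts had 0.29, 0.04, 0.19 and 0.23 after TAB, against 0.56, 0.51, 0.43 and 0.47 after sham. The TAB arrays lay below the sham arrays in each genotype, and the TAB arrays of the genotypes overlapped. Sirt3 fell by 0.40 (SE 0.06, adjusted p = 1.5e-05) in CHIP-/- hearts and by 0.30 (SE 0.06, adjusted p = 0.00058) in wild-type hearts.

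Sirt5, the mitochondrial desuccinylase, had log2 ratios of 1.37, 1.38, 1.57 and 1.55 in CHIP-/- TAB hearts, against 1.96, 1.94, 1.87 and 2.07 in CHIP-/- sham hearts. Wild-type hearts had 1.67, 1.53, 1.73 and 1.47 after TAB, against 2.27, 2.12, 2.00 and 1.99 after sham. The groups did not overlap within a genotype. Sirt5 fell by 0.49 in both (SE 0.08 each, adjusted p = 2e-05 in CHIP-/- and 3.8e-05 in wild-type hearts). The CHIP-/- response minus the wild-type response was 0.00, with a 95% interval from -0.23 to 0.23.

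Sirt1, a nuclear deacetylase, had log2 ratios of 0.19, 0.05, 0.07 and 0.35 in CHIP-/- TAB hearts, against 0.23, 0.20, 0.23 and 0.24 in CHIP-/- sham hearts. Wild-type hearts had 0.22, 0.11, 0.35 and 0.17 after TAB, against 0.31, 0.22, 0.20 and 0.30 after sham. All groups overlapped, and the differences with TAB were -0.06 (95% interval -0.23 to 0.11, adjusted p = 0.59) in CHIP-/- hearts and -0.04 (95% interval -0.21 to 0.12, adjusted p = 0.71) in wild-type hearts. The second Sirt1 probe gave -0.39 (SE 0.10) in CHIP-/- hearts and -0.08 (SE 0.10) in wild-type hearts. That probe was dim: it was not well above background on any CHIP-/- TAB array, so its level there is only a bound, and it was above background on 2 of 4 wild-type TAB arrays. The probes of Sirt1 thus disagreed on a fall in CHIP-/- hearts.

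Nadk, which phosphorylates NAD to NADP in the cytosol, had log2 ratios of -0.97, -0.82, -1.06 and -1.0 in CHIP-/- TAB hearts, against -0.74, -0.75, -0.88 and -0.72 in CHIP-/- sham hearts. Wild-type hearts had -0.94, -0.98, -1.0 and -0.79 after TAB, against -0.68, -0.90, -0.97 and -0.91 after sham. The groups overlapped in both genotypes. The difference in CHIP-/- hearts was -0.19 (SE 0.07, adjusted p = 0.033), and this call was lost when any 1 of 6 arrays was left out (CHIP-/- TAB replicates 1, 3 and 4 and CHIP-/- sham replicates 1, 2 and 4, adjusted p from 0.057 to 0.10). The difference in wild-type hearts was -0.06 (SE 0.07, adjusted p = 0.52).

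**Figure D3:**
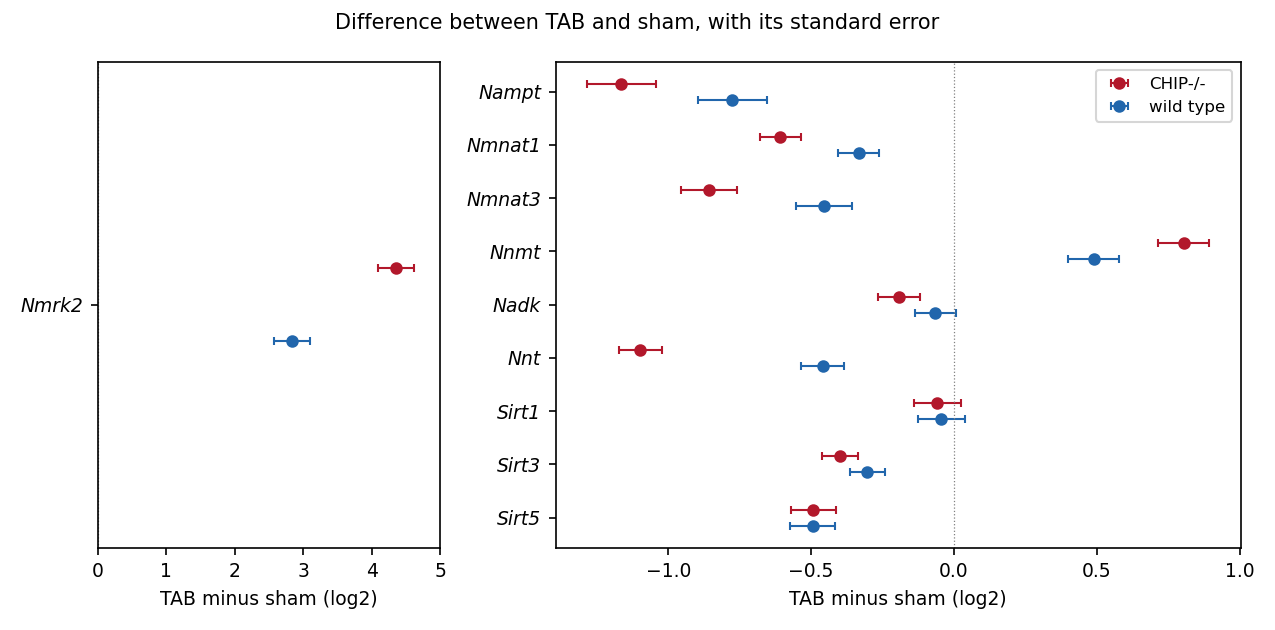
Difference between TAB and sham on the log2 scale, with its standard error, for Nmrk2 (left, on its own scale) and the other 9 NAD metabolism genes (right), in CHIP-/- and in wild-type hearts. Nmrk2 stands at 4.36 and 2.84, Nnmt lies to the right of 0, and Nampt, Nmnat1, Nmnat3, Nnt, Sirt3 and Sirt5 lie to the left of 0 in both genotypes.

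Around these 10 genes, the wider pathway was read from lists of further genes. Of 19 other genes of NAD synthesis and transport, 17 were on the array and 6 were bright enough to be tested. TAB lowered 2 of the 6 and raised none in either genotype. Of all features, 23.2% fell and 24.0% rose in CHIP-/- hearts, and 17.0% fell and 18.7% rose in wild-type hearts. Naprt, which starts NAD synthesis from nicotinic acid, gave a difference of -0.31 (adjusted p = 0.0028) in CHIP-/- hearts and -0.24 (adjusted p = 0.021) in wild-type hearts. Slc29a1, a nucleoside transporter, gave -0.24 (adjusted p = 0.0087) in CHIP-/- hearts and -0.31 (adjusted p = 0.0016) in wild-type hearts. Of the genes that make NAD from tryptophan only Nadsyn1 was tested, and it did not pass in either genotype. Its difference was -0.07 (SE 0.09) in CHIP-/- hearts and -0.16 (SE 0.09) in wild-type hearts. Its other probe gave -0.25 (SE 0.10) in CHIP-/- hearts and 0.00 (SE 0.10) in wild-type hearts. The other genes of that route and Nmrk1, the widely expressed kinase beside Nmrk2, were too dim or had no probe by name. They were not tested.

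The shuttles that carry reducing power of NADH into mitochondria had more falls than rises with TAB. Of 10 tested genes, 6 fell and 1 rose in CHIP-/- hearts (median difference -0.67), and 7 fell and none rose in wild-type hearts (median -0.34). Of all features, 23.2% fell and 24.0% rose in CHIP-/- hearts, and 17.0% fell and 18.7% rose in wild-type hearts. By the brightest probe of each tested gene, the aspartate aminotransferases Got1 and Got2 and the aspartate-glutamate carriers Slc25a12 and Slc25a13 had the largest falls in both genotypes. The ranking depends on the probe for Mdh1. Its brightest probe fell by 0.64 in CHIP-/- hearts and by 0.34 in wild-type hearts. Its other probe fell by 0.89 (SE 0.08) in CHIP-/- hearts and by 0.57 (SE 0.08) in wild-type hearts. Ldhb and Mdh2 were bright but lacked values on too many arrays and were not tested. Ldhb gave -0.91 (SE 0.07) in CHIP-/- hearts and Mdh2 gave -0.13 (SE 0.08) in wild-type hearts, with no value in the other genotype. Got1 had log2 ratios of 1.43, 1.80, 1.41 and 1.58 in CHIP-/- TAB hearts and 2.50, 2.48, 2.52 and 2.47 in CHIP-/- sham hearts. In wild type it had 2.07, 1.91, 1.85 and 1.84 after TAB and 2.37, 2.40, 2.40 and 2.27 after sham. The TAB and sham arrays were thus apart in both genotypes.

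Got1 fell by 0.94 (SE 0.07, adjusted p = 6.5e-10) in CHIP-/- hearts and by 0.44 (SE 0.07, adjusted p = 4.5e-05) in wild-type hearts. Its responses differed by -0.49 (SE 0.10, adjusted p = 0.0064). Got2 fell by 0.79 in CHIP-/- hearts and by 0.46 in wild-type hearts, and the responses differed by -0.33 (SE 0.08, adjusted p = 0.013). Slc25a12 fell by 0.90 in CHIP-/- hearts and 0.62 in wild-type hearts, and Slc25a13 fell by 0.75 in CHIP-/- hearts and 0.54 in wild-type hearts. The calls of a difference between responses in Got1 and Got2 were lost under median centring and without the 3 arrays with a Y-linked transcript, and that of Got2 also without the 3 arrays of high Myl7 (adjusted p = 0.053).

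Ldha, a lactate dehydrogenase subunit that regenerates NAD in the cytosol, was the 1 shuttle gene counted as a rise. Its difference was 0.31 (SE 0.06, adjusted p = 0.00017) in CHIP-/- hearts, and after TAB it was higher in CHIP-/- than in wild-type hearts by 0.26 (SE 0.06, adjusted p = 0.0051). With median centring the difference in CHIP-/- hearts turned to -0.36, beyond the shift of -0.22 in the median of all features, and its other probe gave 0.05 (SE 0.05) with loess, so no direction is given for Ldha. After TAB 5 of the 10 shuttle genes were lower in CHIP-/- hearts, while 6.29% of all features were lower, and none of the 10 passed after sham. They were Got1 (difference -0.36), Got2 (-0.34), Slc25a11 (-0.32), Slc25a12 (-0.30) and the malate dehydrogenase Mdh1 (-0.28, adjusted p = 0.028), whose call was lost under 4 of 12 alternatives and whose other probe gave -0.26 (SE 0.08). Without the 3 arrays of high Myl7, 4 of the 7 falls in wild-type hearts still passed, and all 6 in CHIP-/- hearts did.

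Of 14 tested enzymes that make NADPH or use it to reduce thiols and quinones, 5 fell and 1 rose in CHIP-/- hearts, and 4 fell and none rose in wild-type hearts, with a median difference of -0.05 in each. These counts stand beside 23.2% of all features that fell and 24.0% that rose in CHIP-/- hearts. In wild-type hearts 17.0% of all features fell and 18.7% rose. Idh2, the mitochondrial isocitrate dehydrogenase that makes NADPH, had log2 ratios of 1.52, 1.74, 1.48 and 1.64 in CHIP-/- TAB hearts, against 2.71, 2.66, 2.80 and 2.75 in CHIP-/- sham hearts. Wild-type hearts had 2.09, 1.82, 2.07 and 1.74 after TAB, against 2.62, 2.62, 2.78 and 2.59 after sham. It fell by 1.13 (SE 0.08, adjusted p = 1.6e-10) in CHIP-/- hearts and by 0.72 (SE 0.08, adjusted p = 2.6e-07) in wild-type hearts. The difference of its responses was -0.41 (SE 0.11, adjusted p = 0.028) and was lost under 7 of 11 alternatives.

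The mitochondrial malic enzyme Me3 fell by 0.93 in CHIP-/- hearts and by 0.73 in wild-type hearts, and the cytosolic Me1 by 0.38 in CHIP-/- hearts and 0.48 in wild-type hearts. Idh1, the cytosolic isocitrate dehydrogenase, fell by 0.40 in CHIP-/- hearts. Mthfd1 of folate metabolism fell by 0.23 in CHIP-/- hearts and by 0.43 in wild-type hearts. Its call in CHIP-/- hearts was lost under 2 of 12 alternatives and with 5 of 16 left-out arrays. G6pdx, the entry enzyme of the pentose phosphate pathway, was the 1 gene counted as a rise, at 0.18 (adjusted p = 0.047) in CHIP-/- hearts. Its call was lost under 9 of 12 alternatives and with 11 of 16 left-out arrays, and its value was -0.05 with median centring. The largest falls of the list in both genotypes were thus in mitochondrial enzymes, Idh2 and Me3. The other probe of Me1 gave -0.33 in CHIP-/- hearts and -0.56 in wild-type hearts (SE 0.12 each). That of Mthfd1 gave -0.20 in CHIP-/- hearts and -0.30 in wild-type hearts (SE 0.10 each). The calls of Me1 were lost without the 3 arrays with a Y-linked transcript in CHIP-/- hearts (adjusted p = 0.060) and without the 3 arrays of high Myl7 in wild-type hearts (adjusted p = 0.087).

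Among 21 tested enzymes that consume NAD or break down nicotinamide, 8 fell and 2 rose in each genotype, and the median difference was -0.03 in CHIP-/- hearts and -0.18 in wild-type hearts. Over all features 23.2% fell and 24.0% rose in CHIP-/- hearts, and 17.0% fell and 18.7% rose in wild-type hearts. Aox1, an aldehyde oxidase that acts on methylated nicotinamide, fell by 1.10 (SE 0.14, adjusted p = 1.3e-06) in CHIP-/- hearts and by 0.72 (SE 0.14, adjusted p = 0.00045) in wild-type hearts. Art1, an ADP-ribosyltransferase of the muscle cell surface, fell by 0.84 in CHIP-/- hearts and by 0.67 in wild-type hearts, and Art4 by 0.65 in CHIP-/- hearts and 0.47 in wild-type hearts. The wild-type call of Art4 was lost under 4 of 11 alternatives and with 1 of 16 left-out arrays. Art3 fell by 0.75 in CHIP-/- hearts and was lower there than in wild-type hearts after TAB (difference -0.53, SE 0.12, adjusted p = 0.0062). Sirt4 fell by 0.37 (adjusted p = 0.0028) in wild-type hearts.

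Cd38, the main NAD hydrolase of many tissues, rose by 0.37 (SE 0.11) in each genotype (adjusted p = 0.0068 in CHIP-/- and 0.0095 in wild-type hearts). Its log2 ratios were 0.95, 0.46, 0.70 and 0.44 in CHIP-/- TAB hearts, against 0.35, 0.26, 0.23 and 0.22 in CHIP-/- sham hearts. In wild type they were 0.59, 0.84, 0.92 and 0.76 after TAB, against 0.47, 0.36, 0.33 and 0.47 after sham. The groups were apart in both genotypes. Without the 3 arrays of high Myl7, 4 of the 10 calls of this list in wild-type hearts still passed, all of them falls, and neither Cd38 nor Tnks2, the other gene counted as a rise there (0.18, adjusted p = 0.019, with 0.12 and SE 0.09 by its other probe), was among them. Without the 3 arrays with a Y-linked transcript, Cd38 did not pass in CHIP-/- hearts (difference 0.35, adjusted p = 0.062).

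**Figure D4:**
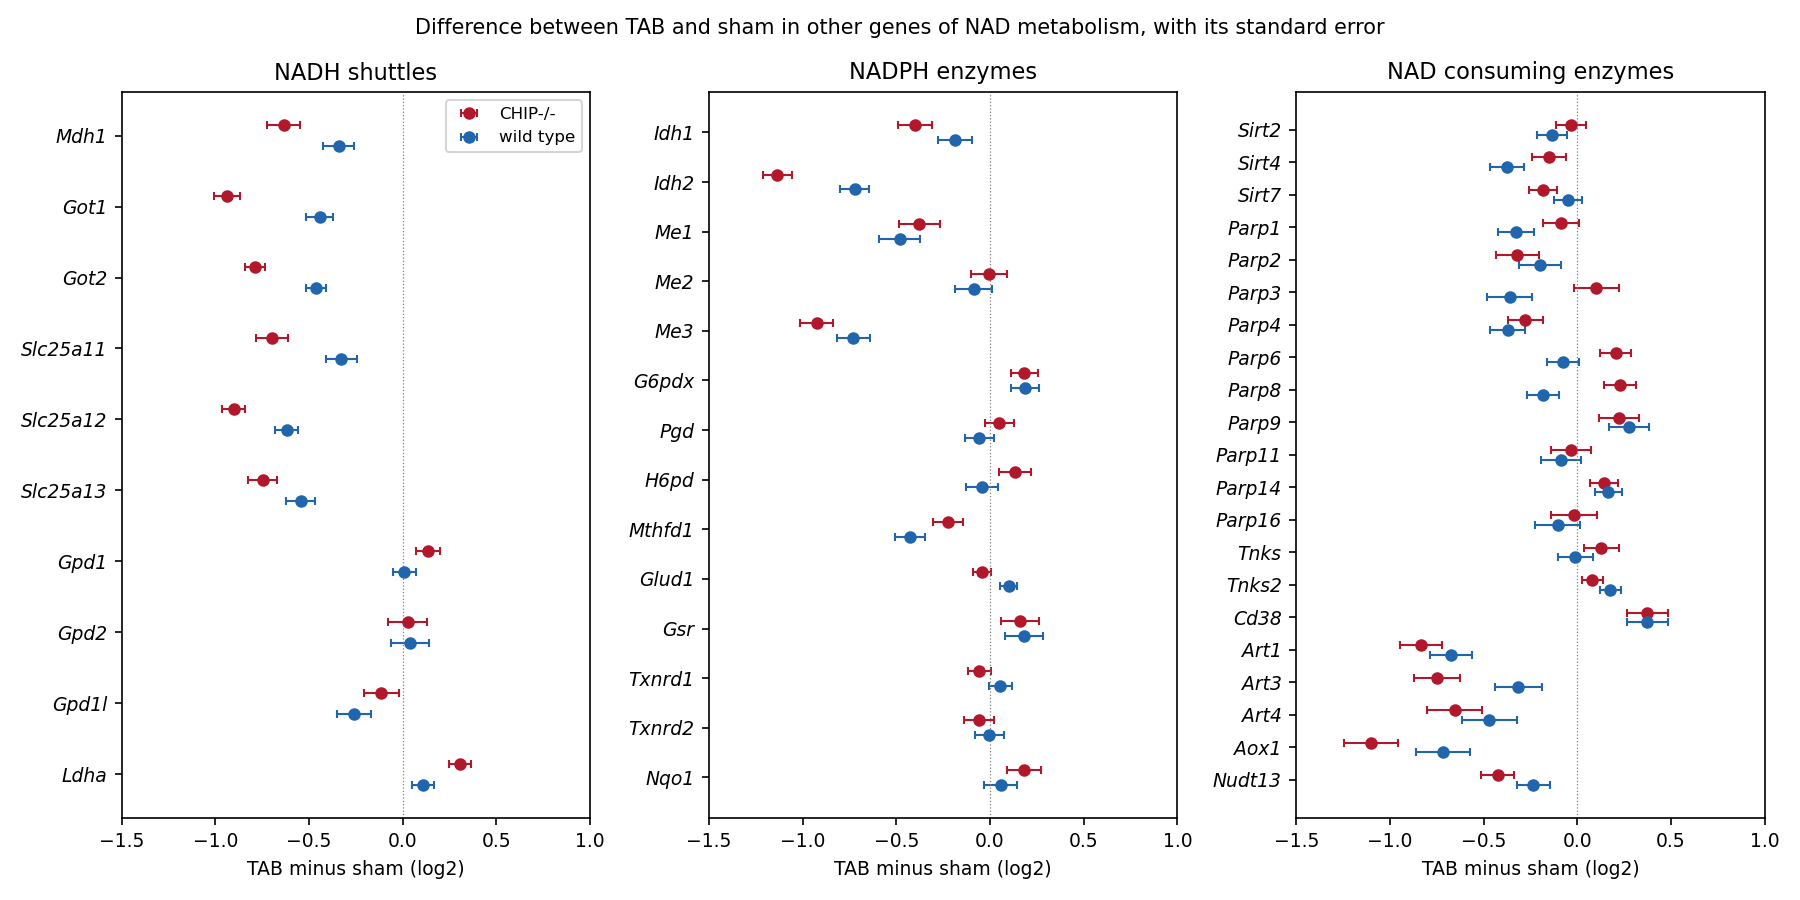
Difference between TAB and sham on the log2 scale, with its standard error, in CHIP-/- and in wild-type hearts for the tested genes of the NADH shuttles, of the NADPH enzymes and of the NAD consuming enzymes. Got1, Got2, Slc25a12, Slc25a13, Idh2 and Me3 lie left of 0 in both genotypes, and Cd38 lies right of 0 in both.

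Nmrk2 was first named for its binding to an integrin, so the laminin-binding integrin of muscle and its partners were also read. Of 6 tested genes, 3 rose and 1 fell in CHIP-/- hearts, and 2 rose and 2 fell in wild-type hearts, beside 24.0% of all features that rose and 23.2% that fell in CHIP-/- hearts and 18.7% and 17.0% in wild-type hearts. Itgb1, the beta subunit that the protein binds, had log2 ratios of 2.04, 1.87, 2.22 and 1.98 in CHIP-/- TAB hearts, against 0.76, 0.76, 0.71 and 0.61 in CHIP-/- sham hearts. In wild type it had 1.09, 1.61, 1.33 and 1.56 after TAB, against 0.78, 0.75, 0.81 and 0.96 after sham. As with Nmrk2, wild-type TAB replicate 1 was the lowest TAB array and the CHIP-/- TAB arrays were the highest of the 16.

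Itgb1 rose by 1.32 (SE 0.09, adjusted p = 2.8e-10) in CHIP-/- hearts and by 0.57 (SE 0.09, adjusted p = 5.8e-05) in wild-type hearts, and the responses differed by 0.75 (SE 0.13, adjusted p = 0.0022). Of its other 2 probes, 1 gave 0.87 in CHIP-/- hearts and 0.21 in wild-type hearts (SE 0.11 each), and 1 gave 0.91 in CHIP-/- hearts and 0.07 in wild-type hearts (SE 0.13 each). Itga7, the alpha subunit of the muscle laminin receptor, fell by 0.35 (adjusted p = 0.00090) in CHIP-/- hearts and by 0.36 (adjusted p = 0.0011) in wild-type hearts, though its second probe gave 0.04 in CHIP-/- hearts and -0.85 in wild-type hearts (SE 0.11 each). Itga6 rose by 0.46 in CHIP-/- hearts and 0.47 in wild-type hearts. Of its other probes, 1 gave 0.05 in CHIP-/- hearts and 0.31 in wild-type hearts (SE 0.11 each), and 1 gave 0.31 in CHIP-/- hearts and 0.39 in wild-type hearts (SE 0.09 each). Itga5 rose by 0.33 (adjusted p = 0.023) in CHIP-/- hearts, a call lost under 2 of 12 alternatives and with 4 of 16 left-out arrays (CHIP-/- TAB replicates 1 and 3, CHIP-/- sham replicates 1 and 3), where the differences over all 16 ran from 0.21 to 0.42. The laminin gene Lama2 fell by 0.23 in wild-type hearts, and its other probe gave -0.32 (SE 0.10) there. With median centring the rise of Itgb1 passed in CHIP-/- hearts but not in wild-type hearts (0.29, adjusted p = 0.075), and that of Itga6 passed in neither (0.11 in CHIP-/- hearts and 0.18 in wild-type hearts).

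The 8 genes whose values ran most like those of Nmrk2 over the 16 arrays were Csrp2 (Pearson r 0.987), Emp1 (0.985), Dynll1 (0.983), Mfap5 (0.979), Pea15a (0.978), S100a13 (0.978), LOC244512 (0.977) and Igfbp7 (0.977), among 10786 genes with values on all arrays. The arrays fall into TAB and sham groups, which these coefficients mostly follow, and 567 genes had a coefficient above 0.9, so the order among them carries little. All 8 were higher after TAB, by 0.67 in Pea15a to 1.93 in Emp1 in CHIP-/- hearts and by 0.44 in Pea15a to 1.44 in Emp1 in wild-type hearts. Once each group's mean was taken away, the 8 coefficients lay between 0.54 and 0.80, and the 8 genes with the highest coefficients were others, led by H2-Ab1 (0.89) and H2-Eb1 (0.89), with 0 in common.

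**Figure D5:**
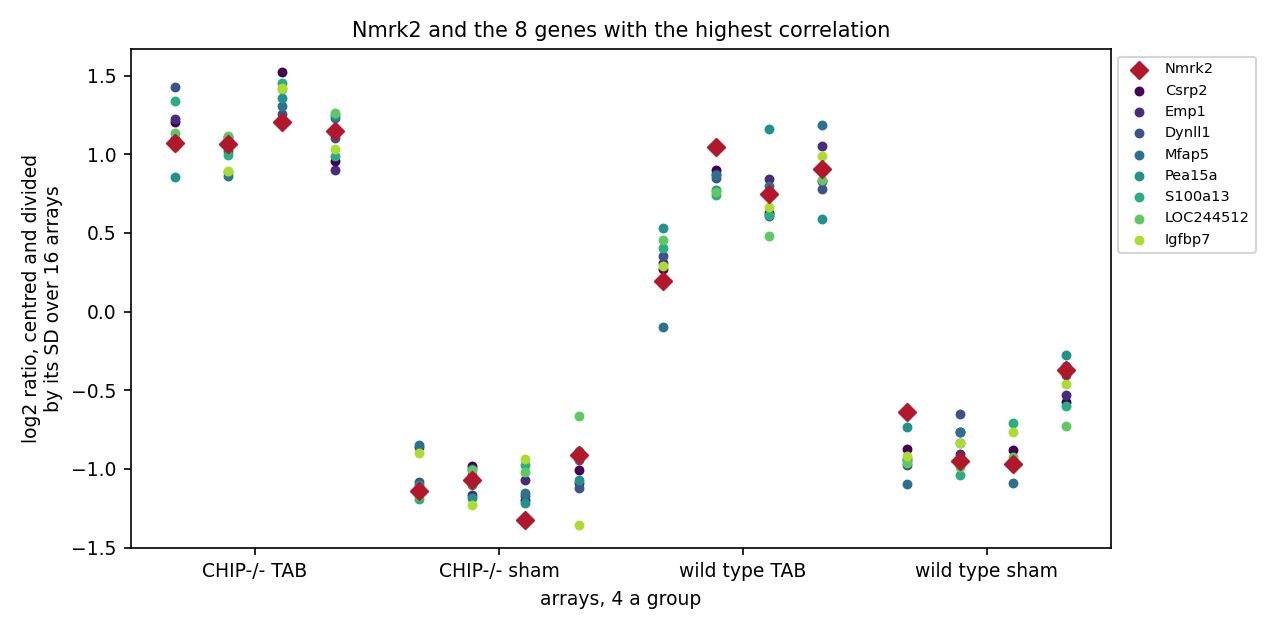
Log2 ratios of Nmrk2 (diamonds) and of the 8 genes with the highest correlation to it over the 16 arrays, each centred on its mean and divided by its SD, by group with 4 arrays a group. In all 9 genes the CHIP-/- TAB arrays stand highest or near the top, the sham arrays of both genotypes stand lowest, and wild-type TAB replicate 1 is the lowest of the TAB arrays. The 8 genes were chosen for this likeness on the same arrays, so the shared pattern is not a separate result.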

How the data were processed

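Ventricle RNA (Cy5) of 4 replicates in each of 4 groups was hybridised with a common reference RNA (Cy3), per the labels. Per the file headers, the deposited files hold linear intensities of each spot, quantified with Feature Extraction 9.1.3.1, and its log10 ratio of heart over reference. A deposited summary of the series holds log2 ratios of 14322 probes, each centred over the arrays (column medians -0.034 to 0.030), and matched the scanner ratios with correlations of at least 0.99976. Intensities of the CHIP-/- TAB files were saved with fewer digits. Background was taken from the mean signals by normexp with an offset of 50, which compresses ratios of dim spots, and normalized by loess within each array. A probe was kept where 4 or more of the 16 arrays had its heart signal well above background (14908 probes). The brightest probe stood for a gene, with values on at least 15 arrays (11058 features). All arrays entered 1 limma model (limma 3.58.1, R 4.3.3) with 4 group means and an intensity trend. Adjusted p-values are Benjamini-Hochberg over all features, with a threshold of 0.05. In the results, further probes of a named gene are given with their difference and SE and no p.

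The members and the further gene lists were chosen with earlier results of these data known. Named genes are all members with all probes, the list genes past the threshold (at most the 4 largest per list and comparison, and those against the majority) and the 8 most correlated with Nmrk2. The fit was tested on simulated data. The number of arrays limits the precision. All arrays carry the same dye orientation, so dye bias is shared by the groups.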

Additional observations from a re-analysis of the deposited data

Results flagged for a closer look

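Nnt fell more with TAB in CHIP-/- than in wild-type hearts, by a difference of -0.64 between the responses. By the same test the responses also differed in Got1 (-0.49), Got2 (-0.33), Idh2 (-0.41), Parp8 (0.41) and Itgb1 (0.75). Parp8, a poly-ADP-ribose polymerase family member, gave 0.23 with TAB in CHIP-/- hearts and -0.18 in wild-type hearts, and its call was lost under 9 of 11 alternatives.

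In 2 of 59 groups of 4 arrays checked over the probes of these genes, 1 array stood apart, and chance alone gives about 1 in 20. The third measurable Nnt probe read 2.31 on wild-type sham replicate 4, against 2.49 to 2.51 on the others of its group. The dim Sirt1 probe read 0.024 on wild-type sham replicate 3, against 0.18 to 0.19.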

How the results depend on the processing

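Under the alternatives of processing and the left-out arrays, 3050 values of single genes kept their direction and their side of the threshold, 239 lost the threshold, 4 newly passed it and 42 changed sign. With median centring the Nmrk2 difference in CHIP-/- hearts was 3.86. Features past the threshold after TAB (1276) became 439 with median centring. After sham (4) they became 22 with median centring, 41 in a fit of only the 2 groups, 17 without the 3 high-Myl7 arrays, 8 without the 3 arrays with a Y-linked transcript, and 2 with minimum background, with Feature Extraction's log ratios and with the deposited series table. For the difference of responses (600) they became 181 with median centring, 387 with no filter on dim probes, 387 with no intensity trend and 97 without the arrays with a Y-linked transcript. For TAB in wild type (3949) they became 2538 without the high-Myl7 arrays. Leaving out 1 array gave 4742 to 5286 for TAB in CHIP-/- hearts, 3429 to 4022 in wild type, 810 (without CHIP-/- TAB replicate 3) to 1386 after TAB, 2 to 15 after sham and 343 (without wild-type sham replicate 4) to 790 for the difference of responses.

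These signs turned with median centring: TAB in CHIP-/- hearts for Parp8 (-0.0095), Ldha (-0.36) and G6pdx (-0.055), TAB in wild type for Tnks2 (-0.17), genotype after sham for Nmnat3 (0.054), Nnmt (0.041) and Sirt1 (0.029), and the difference of responses for Sirt5 (-0.044). The other turned signs were in values near 0. Nmnat3 after sham was 0.027 with minimum background, 0.037 with Feature Extraction's ratios or the series table and 0.095 without high-Myl7 arrays. Nnt after sham was -0.0031, -0.013 and -0.013 under the first 3 of these, and -0.036 without arrays with a Y-linked transcript, where Nmnat1 was -0.0026 and Nnmt 0.11. The Sirt5 difference of responses was -0.020 with minimum background and -0.037 without high-Myl7 arrays. Over left-out arrays it ran from -0.056 to 0.043, that of Sirt1 from -0.076 to 0.030, and after sham Nmnat1 ran from -0.0072 to 0.076, Nmnat3 from -0.070 to 0.039, Nnmt from -0.074 to 0.041 and Nnt from -0.036 to 0.049. Nadk after TAB ran from -0.083 to 0.012. The cause of these changes was not tested.

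With the replicate number as a replicate block, 5134, 3861, 1175, 5 and 507 features passed (TAB in CHIP-/- hearts, TAB in wild type, after TAB, after sham, difference of responses). Nnmt after TAB (adjusted p = 0.052), Parp8 for the difference of responses (0.065), G6pdx in CHIP-/- hearts (0.058) and Nudt13 in wild type (0.061) lost their calls. Same-numbered arrays correlated at -0.19 to 0.18 in their deviations over 24 pairs, and 7 of 16 arrays correlated best with their own number. Between the 2 sham groups the 4 same-numbered pairs stood at 0.03 to 0.12, against a mean of -0.03 for other numbers. Between the 2 TAB groups they stood at -0.19 to 0.00, against a mean of 0.03 for other numbers. What the replicate number stands for was not tested.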
